A study of Mus musculus with 6 samples.

Results

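The genes described here are 34 genes of lipid synthesis, 18 that make fatty acids and glycerolipids and 16 that make sterols, out of 14499 genes in a table of mouse liver RNA-seq. They were chosen by name, though with earlier results of these data known, and each name had 1 row. Their levels were compared between 3 libraries from livers in which Arid1a was knocked out in hepatocytes (Arid1a_KO_DDC) and 3 from wild-type livers (WT_DDC). The ARID1A protein belongs to SWI/SNF, a complex that moves nucleosomes. All mice were 10 weeks old, of mixed C57Bl/6; 129Sv background, and both genotypes had 2 weeks of injury with DDC, a porphyrinogenic compound that damages hepatocytes and bile ducts. The sources used here name neither the driver of the knockout nor the mice behind each library, so a p-value speaks only of the spread among these libraries, which may be technical. Total liver RNA also holds other cells than hepatocytes, and in such RNA fewer cells of a type and less RNA per cell cannot be told apart.

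Fatty acids are built from acetyl-CoA by acetyl-CoA carboxylase and fatty acid synthase, then elongated, desaturated and esterified to triglyceride. Cholesterol is built from the same precursor by way of mevalonate, squalene and lanosterol. In the liver the transcription factors SREBP-1c, the product of Srebf1, and ChREBP, the product of Mlxipl, drive mainly the fatty acid genes, and SREBP-2, the product of Srebf2, drives mainly the sterol genes. SREBPs are held in the endoplasmic reticulum by INSIG proteins when sterols are plentiful and are released when sterols run low.

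Arid1a itself was at 6.61, 5.01 and 3.81 FPKM (fragments counted per length of gene and per size of library) in knockout replicates 1, 2 and 3, against 7.85, 5.48 and 5.98 FPKM in wild-type replicates 1, 2 and 3. These groups overlapped (log2 difference -0.29, limma adjusted p = 0.678), and a level over the whole gene in total liver does not check a deletion in hepatocytes. Between 11280 and 11712 genes per library had at least 1 FPKM. Absolute depth is unknown, and low values placed the other libraries at 0.903 to 1.16 times the depth of wild-type replicate 1, an estimate that rests on 4 to 13 genes a library. Summed over all genes tested, FPKM came to 809439 in wild-type replicate 1 and to 1.25e+06 to 1.70e+06 in the other libraries. Wild-type replicate 1 was the lowest library for 24.3% of all tested genes. Replicate 1 of both genotypes lacked transcripts of 4 Y-linked genes, which summed to 0.111 FPKM in knockout replicate 1 and 0.242 FPKM in wild-type replicate 1, against 36.3 to 42.6 FPKM in the other libraries. The same pair has library identifiers L0566 and L0567, and the others L0602 to L0605.

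None of the 34 genes passed the test between genotypes. The lowest adjusted p was 0.226, for Elovl6 (limma, Benjamini-Hochberg over 11839 genes tested, threshold 0.05). In all, 0.490% of tested genes passed, 0.135% higher and 0.355% lower in knockout livers. At an unadjusted p under 0.05, 3 of the 34 genes were higher and 1 was lower in knockout livers, where 11.1% of all tested genes had such a p, 4.65% higher and 6.50% lower. The same 4 genes, Elovl6, Acacb, Lpin1 and Acaca, were the ones whose groups did not overlap, against 16.6% of all tested genes, 7.09% higher and 9.56% lower. With 4 of 34 genes in all, both counts were too small to set the lipid genes apart from the background.

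The sterol genes and the fatty acid genes differed in how they varied between libraries. All 16 sterol genes were highest in wild-type replicate 1, the top library for 20.8% of all tested genes, and 14 of 16 were lowest in wild-type replicate 2, the bottom library for 1425 of 11839 tested genes. Of the 18 fatty acid genes, 4 were highest in wild-type replicate 1 and 7 in knockout replicate 1, the top library for 13.1% of all tested genes, and 10 were lowest in wild-type replicate 2. The median spread within groups, as an SD of log2(FPKM + 1), was 0.62 for the sterol genes, 0.33 for the fatty acid genes and 0.24 for all genes tested. Within wild-type livers alone the median SD was 0.86, 0.27 and 0.21 for these 3 sets. Within knockout livers alone it was 0.30, 0.36 and 0.22, so the sterol genes had the wider spread only in wild-type livers.

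**Figure D1:**
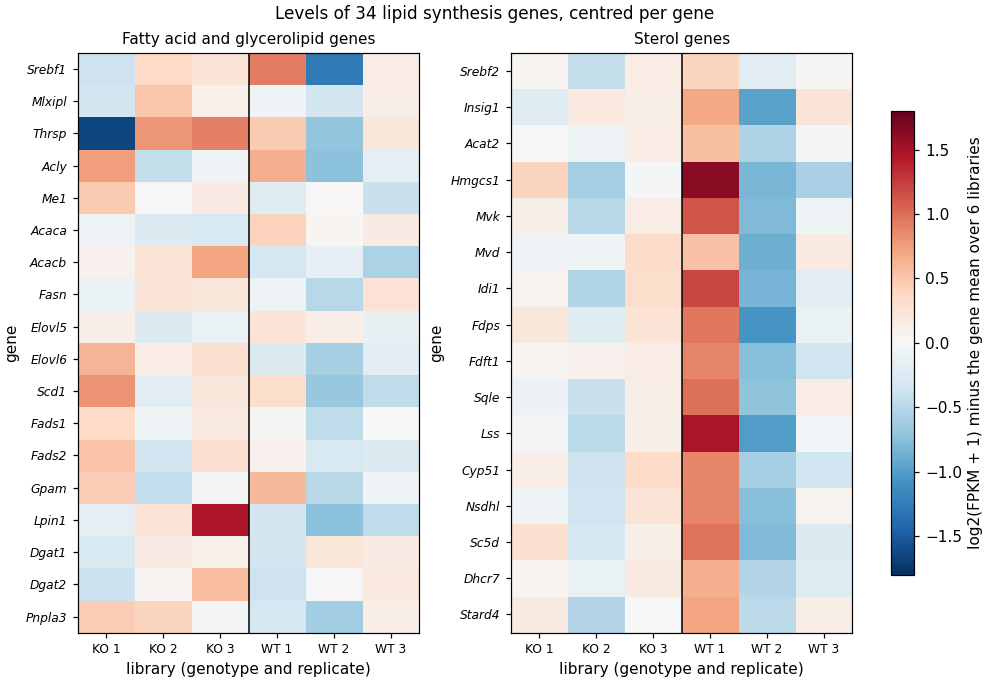
Level of each of the 34 genes in each library, as log2(FPKM + 1) minus the gene's mean over the 6 libraries, with knockout (KO) libraries left of the line and wild-type (WT) libraries right of it. In the sterol panel the WT 1 column is above the gene mean for all 16 genes and the WT 2 column holds the lowest value for 14, whereas in the fatty acid panel the WT 2 column holds the lowest value for 10 of 18 genes and the highest values are spread over all 6 columns.

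The sterol genes begin with their regulators. Srebf2, the gene of SREBP-2, was at 15.5, 10.8 and 16.5 FPKM in knockout replicates 1, 2 and 3, against 20.1, 12.9 and 15.2 FPKM in wild-type replicates 1, 2 and 3. Insig1, which retains SREBPs in the endoplasmic reticulum and is itself an SREBP target, was at 67.8, 89.8 and 85.6 FPKM in knockout livers, against 129, 40.2 and 93.6 FPKM in wild-type livers. For both genes the groups overlapped and wild-type replicate 1 was highest. The ratio of the highest to the lowest wild-type library was 1.56 for Srebf2, the smallest among the 16 sterol genes, and 3.22 for Insig1.

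In the mevalonate arm, Hmgcs1 (ENSMUSG00000093930, protein coding, chromosome 13, 119690379 to 119708260 on GRCm38), the cytosolic HMG-CoA synthase, was at 103, 50.5 and 76.7 FPKM in knockout livers, against 240, 43.6 and 51.6 FPKM in wild-type livers. The wild-type libraries spanned both the highest and the lowest values of this gene, and the knockout libraries lay between them. Its log2 difference, knockout minus wild type, was -0.15 with a 95% interval of -1.67 to 1.38 (limma adjusted p = 0.952). Idi1, the isopentenyl diphosphate isomerase, was at 61.9, 40.4 and 74.3 FPKM in knockout livers, against 138, 32.8 and 51.6 FPKM in wild-type livers. Fdps, the farnesyl diphosphate synthase and the most abundant sterol gene, was at 223, 166 and 231 FPKM in knockout livers, against 377, 92.0 and 179 FPKM in wild-type livers. Both showed the arrangement of Hmgcs1, with all knockout libraries inside the wild-type range. Mvk, the mevalonate kinase, was at 26.1, 16.8 and 26.4 FPKM in knockout livers, against 53.8, 13.5 and 22.9 FPKM in wild-type livers. Mvd, the mevalonate diphosphate decarboxylase, was at 16.0, 15.8 and 21.5 FPKM in knockout livers, against 24.7, 8.68 and 18.9 FPKM in wild-type livers. Acat2, the cytosolic acetoacetyl-CoA thiolase, was at 38.6, 36.1 and 42.3 FPKM in knockout livers, against 56.5, 25.9 and 37.5 FPKM in wild-type livers. The 6 genes of this arm had log2 differences between -0.17 and 0.15, and a similar gene, Acat3, at 168 to 227 FPKM makes the share of reads assigned to Acat2 uncertain.

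In the squalene and sterol arm, Lss (ENSMUSG00000033105, protein coding, chromosome 10, 76531588 to 76557138), the lanosterol synthase, was at 12.9, 9.25 and 14.3 FPKM in knockout livers, against 38.5, 6.12 and 12.8 FPKM in wild-type livers. Its wild-type libraries differed by a ratio of 6.30, the widest of the sterol genes, and its knockout libraries by 1.55. Sqle, the squalene epoxidase, was at 25.5, 20.5 and 29.5 FPKM in knockout livers, against 55.2, 16.2 and 30.2 FPKM in wild-type livers. Fdft1, the squalene synthase, was at 52.1, 53.0 and 55.2 FPKM in knockout livers, against 93.1, 29.0 and 38.9 FPKM in wild-type livers. Its knockout libraries differed by a ratio of only 1.06, and in replicates 2 and 3 it was higher in both knockout than in both wild-type libraries. Its log2 difference over all libraries was 0.17 (95% interval -0.77 to 1.11, limma adjusted p = 0.905).

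The later sterol enzymes followed the same order. Cyp51, the lanosterol demethylase, was at 38.9, 27.4 and 45.7 FPKM in knockout livers, against 66.6, 23.3 and 27.8 FPKM in wild-type livers. Nsdhl, a sterol dehydrogenase, was at 35.1, 28.7 and 44.4 FPKM in knockout livers, against 69.2, 21.4 and 38.9 FPKM in wild-type livers. Sc5d, the sterol desaturase, was at 86.0, 55.5 and 74.7 FPKM in knockout livers, against 138, 39.5 and 57.7 FPKM in wild-type livers. In each of these genes wild-type replicate 1 stood above every other library and wild-type replicate 2 below. Dhcr7, the last reductase of the Kandutsch-Russell pathway, was at 63.3, 56.3 and 68.7 FPKM in knockout livers, against 97.3, 42.5 and 52.9 FPKM in wild-type livers. Stard4, a sterol carrier, was at 9.83, 5.75 and 8.68 FPKM in knockout livers, against 14.9, 6.00 and 9.57 FPKM in wild-type livers. Stard4 and Srebf2 were the 2 sterol genes whose lowest library was knockout replicate 2.

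**Figure D2:**
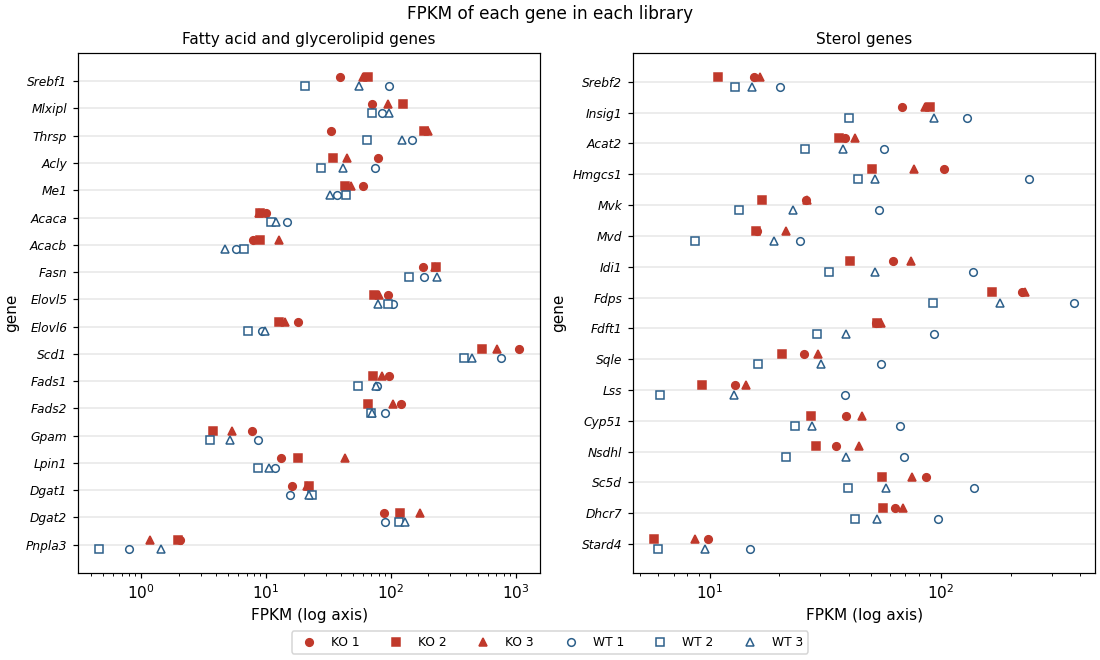
FPKM of each gene in each library on a log axis, with filled red points for knockout (KO) and open blue points for wild-type (WT) libraries, and the shape for the replicate number. Among the sterol genes the open circle of WT 1 is the rightmost point of all 16 rows, and Scd1 has the highest FPKM of the fatty acid genes.

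The promoters of the genes that varied together were read for motifs that SREBP and its partners bind. RefSeq windows on GRCm38.p6, from 250 bases before to 50 bases after an annotated start, were given for 26 of the 34 genes, 12 sterol and 14 fatty acid genes. Those of Lss, Hmgcs1 and Idi1 are printed because these sterol genes had the widest wild-type ranges, and that of Fasn for comparison. Capitals mark matches of CCAAT, the box bound by NF-Y, on either strand, and of TCACNCCAC, a sterol regulatory element core, on either strand. In Fasn the last run of capitals is 2 overlapping CCAAT matches on opposite strands.
Hmgcs1, chr13:119690101-119690400, plus strand: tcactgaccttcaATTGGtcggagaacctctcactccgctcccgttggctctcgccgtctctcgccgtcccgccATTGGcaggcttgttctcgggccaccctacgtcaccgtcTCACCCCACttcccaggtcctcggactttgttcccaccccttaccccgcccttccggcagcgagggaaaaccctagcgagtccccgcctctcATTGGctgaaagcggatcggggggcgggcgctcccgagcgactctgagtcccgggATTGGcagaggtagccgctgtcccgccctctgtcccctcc
Idi1, chr13:8885356-8885655, plus strand: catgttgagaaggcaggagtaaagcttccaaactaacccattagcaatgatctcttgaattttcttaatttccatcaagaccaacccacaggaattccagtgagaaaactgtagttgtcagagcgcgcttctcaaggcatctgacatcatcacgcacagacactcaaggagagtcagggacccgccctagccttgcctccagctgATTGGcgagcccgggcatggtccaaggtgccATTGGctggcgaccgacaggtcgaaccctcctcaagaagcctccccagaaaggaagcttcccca
Lss, chr10:76531355-76531654, plus strand: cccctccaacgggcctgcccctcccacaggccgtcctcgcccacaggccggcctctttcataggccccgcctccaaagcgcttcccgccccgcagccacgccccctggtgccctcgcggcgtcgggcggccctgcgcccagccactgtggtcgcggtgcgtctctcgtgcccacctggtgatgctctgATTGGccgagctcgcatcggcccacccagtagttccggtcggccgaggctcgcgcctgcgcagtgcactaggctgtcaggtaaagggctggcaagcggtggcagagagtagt
Fasn, chr11:120824498-120824797, minus strand: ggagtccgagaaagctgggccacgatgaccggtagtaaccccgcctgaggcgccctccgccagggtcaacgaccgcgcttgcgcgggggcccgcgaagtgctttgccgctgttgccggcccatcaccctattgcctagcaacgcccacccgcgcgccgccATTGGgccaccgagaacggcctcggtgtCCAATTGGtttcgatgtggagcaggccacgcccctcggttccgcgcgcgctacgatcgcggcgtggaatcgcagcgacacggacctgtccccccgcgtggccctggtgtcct

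Hmgcs1 held 4 CCAAT matches and 1 sterol regulatory element core, 137 bases before its start, while Idi1 held 2 CCAAT matches and Lss 1. Over all windows, CCAAT was found in 11 of 14 sterol windows, in 11 of 19 fatty acid windows and in 37.4% of 32851 windows of all genes. GGGCGG, the GC box bound by Sp1, was found in 13 of 14 sterol windows, in 8 of 19 fatty acid windows and in 35.7% of all windows. CACGTG, an E-box, was found in 3 of 14 sterol windows, 2 of 19 fatty acid windows and 7.15% of all windows, and the sterol regulatory element core in 1 of 14, 1 of 19 and 1.24%. Each motif was searched on both strands, and GC box matches can overlap other motifs. A match describes the letters of a window and does not show binding.

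**Figure D3:**
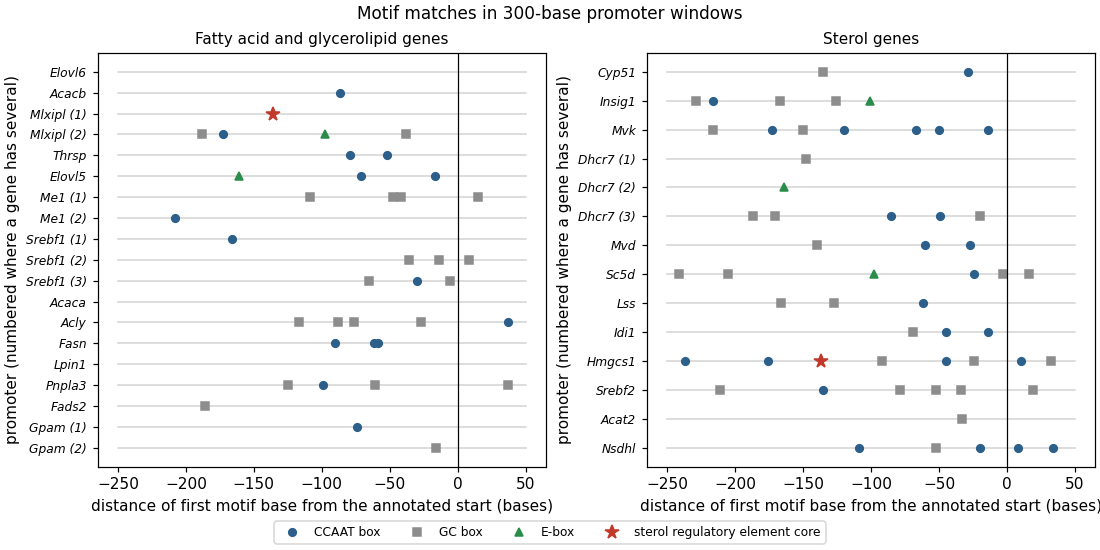
Position of motif matches in the promoter windows of 14 fatty acid genes (left, 19 windows) and 12 sterol genes (right, 14 windows), as the distance of the first motif base from the annotated start. At least 1 GC box or CCAAT match is seen in 13 of the 14 sterol windows, and the 2 stars mark the sterol regulatory element core in Hmgcs1 and in 1 window of Mlxipl.

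As a group the sterol genes had a median log2 difference of -0.04 between genotypes, with 8 of 16 positive and 8 negative, beside 0.0034 for all genes tested. In wild-type livers the ratio of highest to lowest library had a median of 3.22 for these genes, and 15 of 16 differed at least 2-fold, as 17.6% of all tested genes did. In knockout livers the median ratio was 1.53 and 1 of 16 genes, Hmgcs1, differed at least 2-fold, as 19.0% of all tested genes did. All 3 knockout libraries lay between the lowest and the highest wild-type library for 14 of 16 sterol genes, for 4 of 18 fatty acid genes and for 15.2% of all tested genes. Wild-type replicate 1 was above replicate 3, and replicate 3 above replicate 2, in 16 of 16 sterol genes. This order was also seen in 9 of 18 fatty acid genes and in 19.1% of all tested genes. Both sterol counts follow in large part from wild-type replicate 1 being the highest library for all 16 and wild-type replicate 2 the lowest for 14. Whether the spread itself differs between genotypes was not tested.

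The genotype difference of the sterol genes depended on which libraries were used, most of all on wild-type replicates 1 and 2. Without wild-type replicate 1 all 16 differences were positive, with a median of 0.39. Without wild-type replicate 2 all 16 were negative, with a median of -0.40. Wild-type replicate 1 was the highest library for all 16 and wild-type replicate 2 the lowest for 14. These signs therefore follow in large part from that order and are no separate result. Hmgcs1 was at 0.62 without wild-type replicate 1 and at -0.59 without wild-type replicate 2, and Lss at 0.39 and -0.85. Without knockout replicates 1, 2 and 3 in turn the median was -0.098, 0.10 and -0.14. In these settings 7, 12 and 3 of 16 differences were positive. With the libraries split by their identifiers, knockout replicate 1 was below wild-type replicate 1 in 16 of 16 sterol genes, with a median of -0.79, where 51.9% of all tested genes were lower. This count is no separate result, since wild-type replicate 1 was the highest library for all 16. In replicates 2 and 3 the mean was higher in knockout livers for 14 of 16 sterol genes, with a median of 0.39, where 50.9% of all tested genes were higher. That comparison leaves out wild-type replicate 1 and keeps wild-type replicate 2, so it is no separate result either. Of the 34 genes, 0 had a genotype by library number interaction past the threshold (limma, lowest adjusted p = 0.394) and 7 had an unadjusted p under 0.05. Among all tested genes 0.00% passed and 9.05% had such an unadjusted p.

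**Figure D4:**
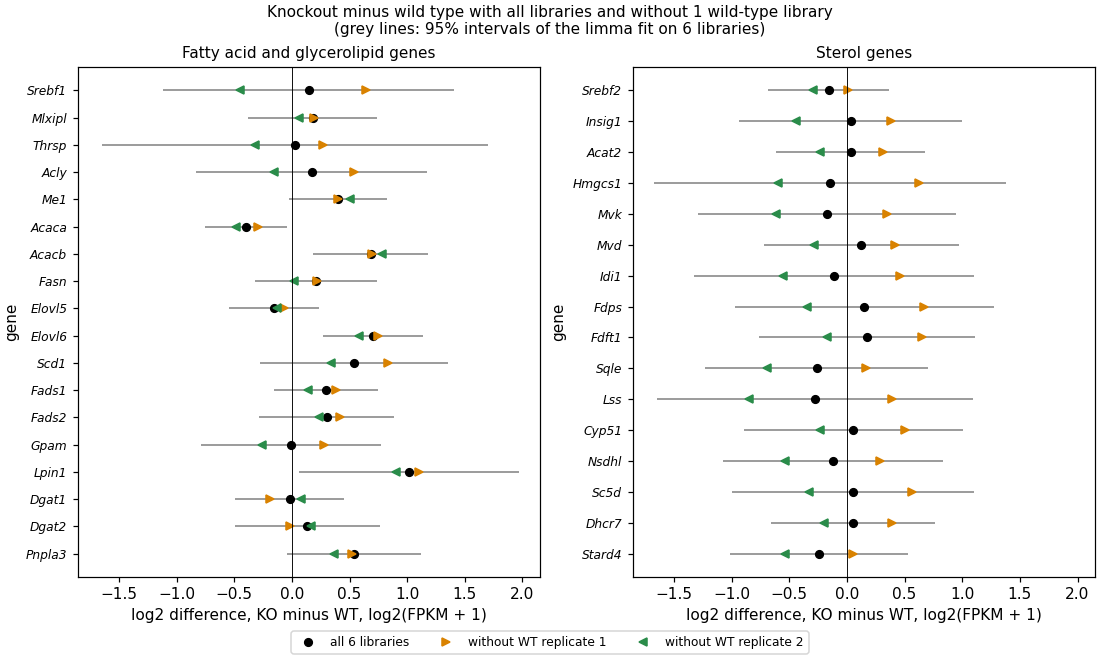
Log2 difference of each gene, knockout (KO) minus wild type (WT) on log2(FPKM + 1), from all 6 libraries (black, with the 95% interval of the limma fit in grey), without WT replicate 1 (orange) and without WT replicate 2 (green). For the sterol genes all 16 orange points lie right of 0 and all 16 green points left of it, and Elovl6, Acacb and Lpin1 stay right of 0 in all 3.

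Other genes of sterol synthesis and uptake, from a list of 13, were arranged like the 16 only in part. Of these genes, 8 were highest in wild-type replicate 1 and 7 were lowest in wild-type replicate 2. All knockout libraries lay inside the wild-type range for 5 of 13, beside 15.2% of all tested genes. The median spread of the 13 within groups, as an SD of log2(FPKM + 1), was 0.32. Of the 13, 0 passed the test and 0 had an unadjusted p under 0.05 by limma, where 11.1% of all tested genes had such a p. Their median log2 difference was -0.06, beside 0.0034 for all genes tested. Msmo1, the sterol methyl oxidase, was at 79.9, 78.2 and 108 FPKM in knockout livers, against 203, 51.2 and 73.9 FPKM in wild-type livers. The same wild-type order, replicate 1 above 3 above 2, was seen in 11 of 13 genes, beside 19.1% of all tested genes. Tm7sf2, a sterol reductase, had the smallest p of the list, with a log2 difference of 0.40 (limma adjusted p = 0.601). Npc2, a lysosomal cholesterol carrier, and Scarb1, the HDL receptor, had differences of -0.19 and 0.23.

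Among 8 genes that process or degrade SREBP pathway proteins, 0 passed the test by limma, and the median was -0.04. Insig2 (ENSMUSG00000003721, chromosome 1, 121304353 to 121332589), the second INSIG protein and in mouse liver a transcript repressed by insulin, had the largest difference of the list. It was at 190, 143 and 238 FPKM in knockout livers, against 396, 1334 and 693 FPKM in wild-type livers. The groups did not overlap. On the log2 scale it was at -1.93 (SE 0.44, 95% interval -2.97 to -0.90, limma adjusted p = 0.157). Among the wild-type libraries it was lowest in replicate 1, where the sterol genes were highest, and highest in replicate 2, where 14 of them were lowest. Among the knockout libraries Insig2 did not run opposite to the sterol genes. Both Insig2 and the median of the sterol genes were lowest in replicate 2 and highest in replicate 3. Erlin1 and Erlin2, which take part in protein degradation at the endoplasmic reticulum, were at log2 differences of 0.31 and 0.24, and Mbtps2, the site-2 protease, at -0.13.

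**Figure D5:**
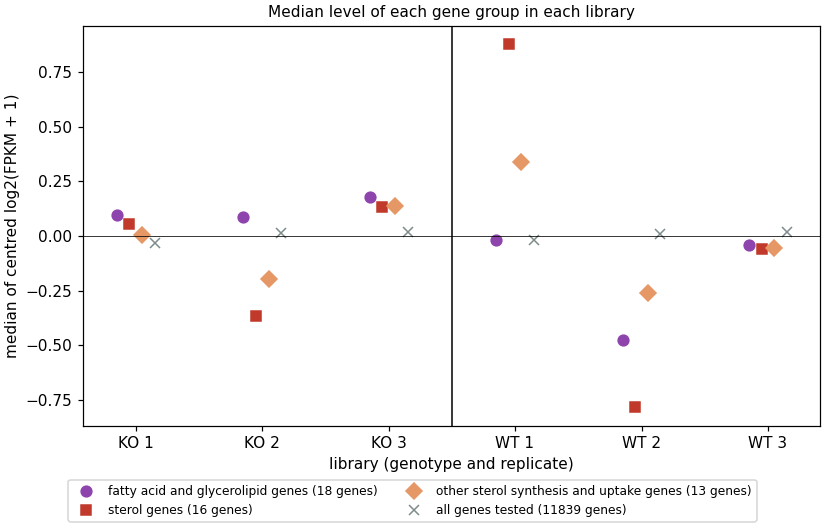
Median over the genes of each group of log2(FPKM + 1) minus the gene mean, in each knockout (KO) and wild-type (WT) library. The sterol genes stand at 0.88 in WT 1 and -0.78 in WT 2, the fatty acid genes at -0.02 and -0.48, and all tested genes between -0.03 and 0.02 in every library.

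The fatty acid genes had a median log2 difference of 0.19, with 14 of 18 positive, beside 0.0034 for all genes tested. The median stayed positive without any single library, between 0.11 and 0.39. The 4 negative genes were Acaca, Elovl5, Gpam and Dgat1. In wild-type livers 5 of 18 genes differed at least 2-fold between libraries, and in knockout livers 4 of 18 did.

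Of the regulators, Srebf1 was at 39.1, 65.6 and 60.4 FPKM in knockout livers, against 97.5, 20.6 and 56.1 FPKM in wild-type livers. Thrsp, the Spot 14 gene that responds to carbohydrate and thyroid hormone, was at 33.0, 186 and 200 FPKM in knockout livers, against 147, 64.3 and 123 FPKM in wild-type livers. Both genes were lower in knockout than in wild-type replicate 1, and higher in both knockout than in both wild-type libraries of replicates 2 and 3. Such opposite differences were seen in 19.7% of all tested genes. Mlxipl was at 70.8, 126 and 95.2 FPKM in knockout livers, against 85.4, 70.6 and 97.1 FPKM in wild-type livers, and was the 1 fatty acid gene highest in knockout replicate 2, the top library for 17.4% of all tested genes. The log2 differences were 0.14 for Srebf1 (95% interval -1.12 to 1.41), 0.03 for Thrsp (-1.64 to 1.70) and 0.18 for Mlxipl (-0.38 to 0.74), so large changes in either direction fall within the error of the first 2.

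Acly, the ATP citrate lyase that supplies acetyl-CoA, was at 79.1, 34.3 and 44.8 FPKM in knockout livers, against 74.0, 27.5 and 41.4 FPKM in wild-type livers. It was highest in replicate 1 and lowest in replicate 2 of both genotypes. Me1, the cytosolic malic enzyme that supplies NADPH, was at 60.2, 42.9 and 48.0 FPKM in knockout livers, against 37.2, 43.4 and 32.6 FPKM in wild-type livers. Its log2 difference was 0.40 (95% interval -0.02 to 0.83, limma adjusted p = 0.477).

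The 2 acetyl-CoA carboxylase genes differed in opposite directions, without passing the test. Acacb (ENSMUSG00000042010, chromosome 5, 114146535 to 114250761), the mitochondrial isoform whose malonyl-CoA inhibits fatty acid import, was at 7.86, 8.96 and 12.8 FPKM in knockout livers, against 5.77, 6.63 and 4.70 FPKM in wild-type livers. Its log2 difference was 0.68 (SE 0.21, limma adjusted p = 0.296). Acaca (ENSMUSG00000020532, chromosome 11, 84129672 to 84401651), the cytosolic isoform of fatty acid synthesis, was at 10.1, 8.997 and 8.80 FPKM in knockout livers, against 14.8, 11.05 and 12.1 FPKM in wild-type livers. Its log2 difference was -0.40 (SE 0.15, limma adjusted p = 0.395). In both genes the groups did not overlap, and the direction was the same without any single library, at 0.50 to 0.82 for Acacb and -0.48 to -0.29 for Acaca. Fasn, the fatty acid synthase, was at 180, 230 and 225 FPKM in knockout livers, against 184, 139 and 235 FPKM in wild-type livers (0.21, limma adjusted p = 0.773).

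Among the elongases and desaturases, Elovl6 (ENSMUSG00000041220, chromosome 3, 129532355 to 129638495), which extends palmitate to stearate, had the smallest p of the 34 genes. It was at 17.9, 12.6 and 14.2 FPKM in knockout livers, against 9.32, 7.21 and 9.79 FPKM in wild-type livers, and averaged 14.9 ± 2.73 FPKM in knockout and 8.77 ± 1.38 FPKM in wild-type livers (SD, n = 3 libraries each). The groups did not overlap, and the log2 difference was 0.70 (SE 0.18, 95% interval 0.27 to 1.13, limma adjusted p = 0.226). Scd1, the stearoyl-CoA desaturase and the most abundant of the 34 genes, was at 1068, 536 and 701 FPKM in knockout livers, against 762, 382 and 445 FPKM in wild-type livers. Replicate 1 was the highest of its group in both genotypes, and the groups overlapped (0.54, 95% interval -0.27 to 1.36, limma adjusted p = 0.614). Fads1 and Fads2, the delta-5 and delta-6 desaturases, both had log2 differences of 0.30 (limma adjusted p = 0.617 and 0.702). Fads1 was at 97.4, 72.3 and 84.9 FPKM in knockout livers, against 77.3, 55.0 and 75.5 FPKM in wild-type livers. Elovl5, which elongates polyunsaturated fatty acids, was at -0.15 (limma adjusted p = 0.778).

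Among the genes of glycerolipid assembly, Lpin1 (ENSMUSG00000020593, chromosome 12, 16535669 to 16610966), a phosphatidate phosphatase, was at 13.1, 17.95 and 43.1 FPKM in knockout livers, against 11.7, 8.64 and 10.7 FPKM in wild-type livers. Its groups did not overlap, but knockout replicate 3 was far above the others. Its log2 difference of 1.02 (SE 0.40, limma adjusted p = 0.426) became 0.54 without knockout replicate 3. Pnpla3, a lipid droplet hydrolase and SREBP-1c target, was at 2.06, 1.96 and 1.19 FPKM in knockout livers, against 0.808, 0.461 and 1.45 FPKM in wild-type livers. At such low levels its difference of 0.54 (limma adjusted p = 0.481) is understated by the added 1 FPKM, and it was 0.96 with a pseudocount of 0.1. Gpam, the mitochondrial glycerol phosphate acyltransferase, was at 7.73, 3.75 and 5.36 FPKM in knockout livers, against 8.60, 3.57 and 5.13 FPKM in wild-type livers, the replicate order of Acly. Dgat1 and Dgat2, the enzymes of the last step to triglyceride, had differences of -0.02 and 0.13 (limma adjusted p = 0.979 and 0.886).

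Further genes of fatty acid and glycerolipid synthesis, 25 tested of 28 listed, had a median log2 difference of 0.09, with 21 positive and 0 past the threshold by limma. At an unadjusted p under 0.05, 2 were higher and 1 was lower in knockout livers. Among all tested genes 4.65% were higher and 6.50% lower at such a p. Elovl2, which makes very long polyunsaturated fatty acids, was at 110, 91.5 and 105.6 FPKM in knockout livers, against 59.8, 46.2 and 61.8 FPKM in wild-type livers. Its groups did not overlap (0.87, SE 0.16, limma adjusted p = 0.102). Scd2, a desaturase similar in sequence to Scd1, was at 15.0, 22.6 and 11.1 FPKM in knockout livers, against 9.46, 2.15 and 2.73 FPKM in wild-type livers (1.74, SE 0.48, limma adjusted p = 0.248). Since the pair is similar in sequence, the assignment of reads between Scd1 and Scd2 is uncertain. Elovl1, which elongates saturated chains, was at 52.1, 51.6 and 51.9 FPKM in knockout livers, against 61.0, 67.8 and 72.7 FPKM in wild-type livers (-0.36, limma adjusted p = 0.353). Pgd, an NADPH-producing dehydrogenase, had a difference of 0.34 (limma adjusted p = 0.590).

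Of 12 lipid droplet and lipolysis genes 0 passed the test by limma, with a median of -0.03 and 2 at an unadjusted p under 0.05. Among all tested genes 11.1% had such an unadjusted p. G0s2, an inhibitor of the lipase ATGL, was at 37.9, 48.9 and 69.4 FPKM in knockout livers, against 20.01, 27.7 and 27.3 FPKM in wild-type livers (log2 difference 1.001, SE 0.25, limma adjusted p = 0.196). Abhd5, the coactivator of the same lipase, and Hsd17b13, a lipid droplet enzyme, had differences of 0.40 and 0.52, and Plin3, a droplet coat protein, of -0.42. Plin2, the main droplet coat protein of hepatocytes, was at 202, 185 and 238 FPKM in knockout livers, against 134, 419 and 241 FPKM in wild-type livers, so wild-type replicate 2, lowest for most sterol genes, was highest for Plin2.

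Of 12 LXR factors and genes of cholesterol efflux and esterification 0 passed the test by limma, with a median of 0.04 and 1 at an unadjusted p under 0.05. Such an unadjusted p was seen in 11.1% of all tested genes. Abcg5, a subunit of the sterol exporter to bile, was at 33.95, 58.9 and 62.5 FPKM in knockout livers, against 40.6, 20.2 and 22.7 FPKM in wild-type livers (0.89, limma adjusted p = 0.388). Its partner Abcg8 was at 20.2, 33.4 and 38.9 FPKM in knockout livers, against 26.6, 12.5 and 15.8 FPKM in wild-type livers (0.74, limma adjusted p = 0.480). Both were highest in wild-type replicate 1 among wild-type libraries and lowest in replicate 1 among knockout libraries. Soat2, which esterifies cholesterol in hepatocytes, and Lcat, which does so in plasma, had differences of 0.48 and 0.40.

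Genes that follow feeding and the clock also varied between libraries, and their part in the levels of the lipid genes was not tested. Nr1d1, the REV-ERB alpha repressor of the clock, was at 24.3, 2.08 and 1.68 FPKM in knockout livers, against 57.9, 1.85 and 1.95 FPKM in wild-type livers. Dbp, a clock output factor, was at 16.1, 3.38 and 5.66 FPKM in knockout livers, against 25.6, 1.55 and 1.35 FPKM in wild-type livers. Both were high in replicate 1 of both genotypes and highest in wild-type replicate 1. Of 13 clock genes 0 passed the test by limma, with a median of -0.23 and 2 at an unadjusted p under 0.05, Arntl at -0.61 and Npas2 at -1.15 (limma adjusted p = 0.153 and 0.204). An unadjusted p under 0.05 was seen in 11.1% of all tested genes. Cry2 and Per3 had differences of -0.23 and 0.33. Of 6 genes linked to feeding 0 passed by limma, with 0 at an unadjusted p under 0.05 and a median of -0.19. Igfbp1, which insulin represses, was at 57.2, 89.6 and 98.5 FPKM in knockout livers, against 114, 92.4 and 173 FPKM in wild-type livers. G6pc, the glucose-6-phosphatase, had a difference of -0.44. Fgf21, a fasting hormone of the liver, was at 7.31, 6.19 and 10.8 FPKM in knockout livers, against 0.890, 25.5 and 3.13 FPKM in wild-type livers.

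The markers of cell types give the makeup beside these values. The 8 hepatocyte markers were all tested, summed to 45544 to 55562 FPKM in knockout and 42433 to 45819 FPKM in wild-type libraries, and had a median log2 difference of 0.09. The 6 biliary markers had a median of -0.64 and sums of 208 to 420 FPKM in knockout and 126 to 386 FPKM in wild-type libraries, and 1 of them, Cldn4, fell by 1.42 on the log2 scale (limma adjusted p = 0.0386), a call lost with a replicate block (adjusted p = 0.0851), without a filter (0.110), with a pseudocount of 5 (0.0536) and without any single library other than wild-type replicate 1 (0.0737 to 0.157). The 5 macrophage markers tested, of 6 listed, had a median of -0.47, with 254 to 370 FPKM in knockout and 418 to 480 FPKM in wild-type libraries. The 6 stellate and fibroblast markers had a median of -0.48, with 48.5 to 77.7 FPKM in knockout and 68.1 to 87.1 FPKM in wild-type libraries, and the 5 endothelial markers a median of -0.33, with 8.61 to 28.1 FPKM in knockout and 15.9 to 25.6 FPKM in wild-type libraries. The 4 tested of 7 B and plasma cell markers, led by Igkc, ranged from 20.2 to 7669 FPKM in knockout and from 1527 to 5513 FPKM in wild-type libraries. Of 6 adipocyte markers 1 was tested, Fabp4, at 4.62 to 11.5 FPKM in knockout and 8.57 to 11.03 FPKM in wild-type libraries. No tested marker was listed at 0 in any library. The part of these cells in the levels of the lipid genes was not tested.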

How the data were processed

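RNA-seq of total liver RNA of mice was used, in 6 libraries, 3 Arid1a_KO_DDC and 3 WT_DDC, grouped by their titles. The authors deposited log2 FPKM for 14499 genes. The tools named per the submitters' processing notes are TopHat2 2.0.6 and Cufflinks, with mm10 and GRCm38, and neither the annotation nor the rule for listing genes is stated. The lowest deposited log2 value, -10, is an FPKM of 0 plus an offset of 0.000977. The offset was removed: of 60079 values between 1 and 50, 100% then had no more than 6 significant digits (relative tolerance 3e-08), and 0% did before. Positions of genes come from GENCODE M21 (GRCm38).

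The test covered genes that reached 1 FPKM in 3 or more libraries of either genotype (11839, all 34 lipid genes among them) on log2(FPKM + 1) with limma 3.58.1 in R 4.3.3 (eBayes with a trend, two-sided, Benjamini-Hochberg over all genes tested, threshold 0.05). On this scale the changes of low genes are understated. Intervals are limma's at 95%. An exact permutation test of 3 against 3 libraries cannot go below p = 0.1. Groups of genes are described by counts and medians, without a test. The members, lists, motifs and tests were chosen with earlier results of these data known. All members are named, and from each other list the genes past the threshold and up to 4 with the smallest p, some of which are not reported here; Msmo1, Plin2, Nr1d1, Dbp, Igkc and Acat3 were chosen after their values were seen. Whether counting used strand is not stated, and 8 members overlap another gene of the table on the opposite strand: Srebf1, Mlxipl, Acaca, Elovl6, Mvd, Fdft1, Lss and Cyp51. The limma test was also run on simulated data with 3 libraries a group. It recovered 47 of 100 genes changed by 1 on the log2 scale and 97 of 100 changed by 2, and called 10 unchanged genes. The changed genes were drawn at random from the better expressed genes tested. The median SE was 0.40 for the sterol genes and 0.19 for all genes tested, so these shares do not carry over to the sterol genes. A change of 1 can thus be missed, and in genes with a wide spread also a larger one.

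Figures were drawn with matplotlib 3.10.9. Alternatives were the pseudocount, the filter, the scaling, the variance model, a replicate block, a library number term, the libraries L0602 to L0605 alone and leaving out each library.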

Additional observations from a re-analysis of the deposited data

Results flagged for a closer look

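For 4 of the 34 genes the difference between knockout and wild type had one sign in replicate 1 and the other in replicates 2 and 3, with no overlap between genotypes in replicates 2 and 3. Such a pattern was seen in 19.7% of all genes tested. The difference of the log2 differences, replicate 1 minus replicates 2 and 3, was -3.226 for Thrsp and -2.162 for Srebf1 among the fatty acid genes (limma interaction adjusted p = 0.394 and 0.545). It was -1.496 for Fdft1 and -0.9977 for Dhcr7 among the sterol genes (limma interaction adjusted p = 0.413 and 0.511). None of the 4 passed the interaction test, and replicate 1 is 1 library per genotype. Replicate 1 also differs from the others in library number, in Y-linked transcripts and in Nr1d1 and Dbp, and these cannot be told apart.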

How the results depend on the processing

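Of the 34 genes 0 passed the threshold under any of 17 alternatives, with a lowest adjusted p of 0.125 (limma, library number term), and the count of interactions was 0 in the 8 alternatives in which it was fitted. Over all genes 58 were called, 12 without a filter, 0 with a replicate block, 92 with a library number term and 0 to 67 without single libraries; the counts were 35, 6 and 2 without wild-type replicates 1, 2 and 3, and 0 without knockout replicate 3. The correlation of same-numbered deviations was 0.346, 0.133 and 0.0212 for replicates 1, 2 and 3. Knockout replicate 1 correlated best with wild-type replicate 1, against -0.172 and -0.269 with wild-type replicates 2 and 3. Knockout replicates 2 and 3 correlated best with another number, so the replicate numbers did not pair these libraries. The median difference of the fatty acid genes ranged from 0.11 to 0.39 and that of the sterol genes from -0.40 to 0.39 without single libraries. Me1, Acaca, Acacb, Fasn, Elovl5, Elovl6, Scd1, Fads1, Fads2, Lpin1 and Pnpla3 had the same sign under every alternative that gave a value. With quantile normalization the sign turned for Thrsp (-0.052), Gpam (0.039), Insig1 (-0.025), Sc5d (-0.0018) and Dhcr7 (-0.0014). With libraries L0602 to L0605 alone it turned for Gpam (0.054), Hmgcs1 (0.39), Mvk (0.25), Idi1 (0.40), Sqle (0.15), Lss (0.34) and Nsdhl (0.30). Without single libraries the log2 difference ranged from -0.45 to 0.64 for Srebf1, -0.026 to 0.39 for Mlxipl, -0.42 to 0.86 for Thrsp, -0.16 to 0.54 for Acly, -0.26 to 0.28 for Gpam, -0.19 to 0.11 for Dgat1 and -0.11 to 0.36 for Dgat2. Among the sterol genes it ranged from -0.29 to 0.018 for Srebf2, -0.45 to 0.38 for Insig1, -0.24 to 0.31 for Acat2, -0.59 to 0.62 for Hmgcs1, -0.61 to 0.35 for Mvk, -0.28 to 0.42 for Mvd, -0.56 to 0.46 for Idi1 and -0.34 to 0.67 for Fdps. It ranged from -0.17 to 0.65 for Fdft1, -0.69 to 0.16 for Sqle, -0.85 to 0.39 for Lss, -0.23 to 0.51 for Cyp51, -0.54 to 0.29 for Nsdhl, -0.33 to 0.56 for Sc5d, -0.20 to 0.39 for Dhcr7 and -0.54 to 0.051 for Stard4. Some alternatives used fewer libraries or genes, others more genes or the same numbers, and the cause of these changes was not tested. Absolute depth is unknown, so no counting error can be given.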
